A study of Mus musculus with 16 samples.

Results

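Immediate early genes are genes whose transcription starts within minutes of a stimulus and needs no new protein, and 10 of them are described here in 16 mouse melanoma tumours: Fos, Fosb, Jun, Junb, Egr1, Ier2, Dusp1, Zfp36, Klf4 and Klf6. They were taken by symbol from a table of 16094 genes, which listed 10 of the 10, and 10 of 10 passed a filter on low values that kept 14672 genes. The tumours grew in mice from B16R2L, a mouse melanoma line. A short hairpin RNA in its cells was directed at Mdk (shMdk), which encodes midkine, a secreted growth factor, or was a non-targeting control (shCtrl). Treatment began at a tumour volume of 100 mm3 and was given 2 times weekly over 2 weeks, either with anti-PD1 (clone RMP1-14, 10 mg/kg per the labels), an antibody that blocks an inhibitory receptor of T cells, or with a control IgG2a, for which the labels state no dose. The 4 groups were shMdk with anti-PD1, shMdk with IgG2a, shCtrl with anti-PD1 and shCtrl with IgG2a, with 4 tumours each. Each line carried 1 hairpin, so an effect of Mdk loss and an effect of that hairpin or cell line cannot be told apart. The question named by the series is how tumours with Mdk knocked down respond when PD1 is blocked.

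Immediate early genes are switched on by growth factors, cytokines, adhesion and stress through MAP kinases, which activate serum response factor at CArG boxes and CREB at cyclic AMP response elements (CRE) in their promoters. Fos, Fosb, Jun and Junb encode subunits of the dimeric transcription factor AP-1, and Egr1, Klf4 and Klf6 encode zinc finger transcription factors. Dusp1 encodes a phosphatase that switches MAP kinases off, Zfp36 encodes tristetraprolin, which binds AU-rich elements in 3′ untranslated regions and speeds the decay of cytokine and immediate early mRNAs, and Ier2 encodes a nuclear protein of less certain function. The mRNAs are short-lived, and in tissue they are also known to be raised by handling and dissection.

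The sequences that tie the genes to these regulators are shown for members described as moving together or apart below. RefSeq promoters of build GRCm38.p6, 250 bases upstream of each start, were given for 8 of the 10 genes, all but Egr1 and Ier2. The CRE (TGACGTCA, palindromic) was found in 1 of the 8, Dusp1, and in 1.55% of 32851 mouse promoters. Its core alone (TGACG, or CGTCA on the other strand, which the CRE contains) was found in 5 of the 8, namely Fos, Fosb, Junb, Dusp1 and Klf4, against 17.8% of promoters. A CArG box was found in 1 of the 8, Zfp36, against 1.47% of promoters. The AP-1 site (TGACTCA or TGAGTCA) was found in 0 of the 8, against 4.46%, and the EGR site (GCGTGGGCG or CGCCCACGC) in 0 of the 8, against 0.536%. In the GENCODE M21 annotation of GRCm38, Fos lies at chr12:85473890-85477273, Junb at chr8:84974484-84978718, Jun at chr4:95049034-95052222, Dusp1 at chr17:26505590-26562128 and Zfp36 at chr7:28376784-28380253. The RefSeq starts of Dusp1 and Zfp36, which the promoter windows follow, lie inside these spans. A match is a description of these letters and no evidence of binding. Bases outside the 250 were not searched, so a gene without a match here may hold the site elsewhere. Capitals mark the CRE or its core in Fos (chr12:85473640-85473839, plus strand), Junb (chr8:84978799-84978998, minus strand) and Dusp1 (chr17:26508523-26508722, minus strand), and the CArG box in a shorter stretch of Zfp36 (chr7:28379267-28379296, minus strand):
Fos: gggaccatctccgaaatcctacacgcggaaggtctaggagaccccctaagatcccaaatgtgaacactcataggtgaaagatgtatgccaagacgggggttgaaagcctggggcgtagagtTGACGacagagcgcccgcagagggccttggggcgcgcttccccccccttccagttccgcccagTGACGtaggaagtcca
Junb: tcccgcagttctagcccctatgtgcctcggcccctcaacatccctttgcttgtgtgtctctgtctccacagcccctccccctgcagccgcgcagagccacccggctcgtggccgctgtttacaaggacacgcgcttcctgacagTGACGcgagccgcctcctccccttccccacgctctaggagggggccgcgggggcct
Dusp1: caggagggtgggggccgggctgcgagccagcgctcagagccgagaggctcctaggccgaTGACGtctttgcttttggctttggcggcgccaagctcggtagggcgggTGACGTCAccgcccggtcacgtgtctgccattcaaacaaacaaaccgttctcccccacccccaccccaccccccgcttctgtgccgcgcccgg
Zfp36: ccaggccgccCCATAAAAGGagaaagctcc

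The AU-rich pentamer ATTTA, the core of the element that tristetraprolin binds, occurred in the annotated 3′ untranslated region of 9 of the 10 genes, all but Ier2, against 69.8% of 12361 genes. At least 3 copies were found in 5 of the 10, against 38.7%, with 7 in Klf6 and 4 each in Fos, Jun and Dusp1. The longer nonamer TTATTTATT, which contains the pentamer, occurred in 3 of the 10, Fos, Dusp1 and Zfp36 itself, against 8.21% of genes. It is shown in capitals in windows of 30 bases of the transcribed strand:
Fos: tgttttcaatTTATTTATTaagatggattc
Dusp1: gagctggtccTTATTTATTtaacacccccc
Zfp36: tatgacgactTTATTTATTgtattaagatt

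Values below are normalised read counts, that is reads per gene divided by the size factor of the library, from libraries that read the 3′ ends of transcripts. Between 5686405 and 8886334 reads were counted per tumour, and the members' own counts ran from 0 reads (Fosb) to 1723 (Klf6). Mdk, the targeted gene, averaged 211 ± 106 (shMdk anti-PD1) and 199 ± 89.3 (shMdk IgG2a) in knockdown tumours, against 873 ± 206 (shCtrl anti-PD1) and 862 ± 248 (shCtrl IgG2a) in controls (SD, n = 4 each). Of 8 melanocyte markers, 8 were detected in 16 of 16 tumours, with summed counts of 114062 to 192287. In bulk RNA, more cells of a type and more RNA per cell cannot be told apart. The labels give RNA integrity numbers with a mean of 8.6 and a range of 5.8 to 9.2, without a value for each tumour. Some libraries stood apart. The share of reads on Gm42418, which lies over rRNA sequence, was 4.47% for shCtrl anti-PD1 tumour 2 and 3.17% for tumour 1 of shMdk IgG2a, against 0.880% to 1.56% elsewhere, and the first of these also held a summed haemoglobin and Alas2 count of 574472, against 3576 to 123865 elsewhere. In 5 tumours (shMdk anti-PD1 tumour 1, shMdk IgG2a tumours 3 and 4, shCtrl IgG2a tumours 1 and 2), the level of a gene went up with the GC content of its 3′ end, by 0.0973 to 0.184 log2 units per 10% GC. Thus 1 of the 8 anti-PD1 libraries and 4 of the 8 IgG2a libraries had such a slope.

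The members were highest, as a share of all reads, in 1 tumour. In shMdk anti-PD1 tumour 4 they took 0.0615% of reads, against 0.0137% to 0.0313% in the other 15. That tumour had the highest count of its group for 10 of the 10 genes and the highest of the 16 tumours for 9, the exception being Ier2. By design groups, 10 of 10 genes had a higher mean log2 value with anti-PD1 than with IgG2a in shMdk tumours, against 53.2% of all genes tested (9 of 10 without tumour 4), and 6 of 10 did in shCtrl tumours, against 51.3%. In shMdk tumours, 4 of 10 were higher with anti-PD1 without overlap between the groups, against 4.42% of all genes. One gene, Zfp36, passed the test in a comparison of groups, being higher in shMdk than in shCtrl tumours under anti-PD1. That is 1 of 10, near the 4.93% of all genes called higher there. The call was lost when any of several single tumours was left out.

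**Figure D1:**
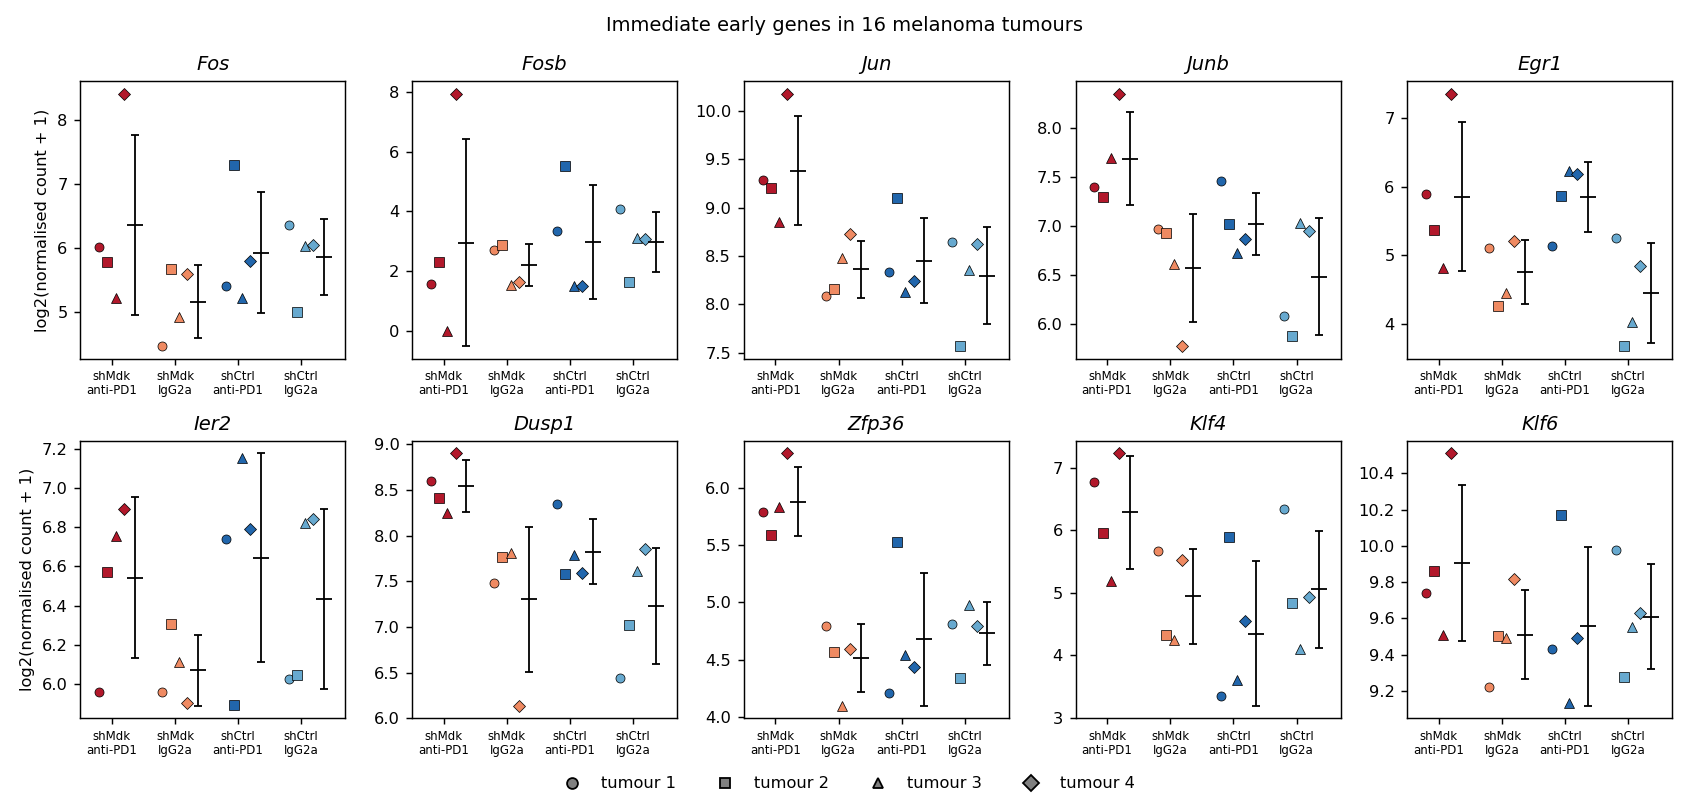
Level of each of the 10 genes in each tumour, as log2(normalised count + 1), with groups along the x axis in the order shMdk anti-PD1, shMdk IgG2a, shCtrl anti-PD1, shCtrl IgG2a; symbols mark tumour number within a group, and the bar beside them is the mean with SD (n = 4). The diamond of shMdk anti-PD1, tumour 4, is the top point of the panel for 9 of the 10 genes, and Zfp36 separates shMdk anti-PD1 from each of the other groups.

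Among the AP-1 genes, Jun and Junb differed between antibodies in shMdk tumours without overlap, while Fos and Fosb turned on single tumours. Jun, the main partner of the FOS proteins, had counts of 624, 588, 462 and 1159 in shMdk anti-PD1 tumours 1 to 4, against 270.4, 284, 356 and 422 in shMdk IgG2a tumours. In shCtrl tumours it had 322, 549, 279 and 302 with anti-PD1, against 398, 189, 327 and 392 with IgG2a. The lowest shMdk anti-PD1 tumour lay above the highest shMdk IgG2a tumour, and the shCtrl groups overlapped. The log2 fold change of anti-PD1 over IgG2a in shMdk tumours was 1.02 ± 0.29 (SE), with a limma adjusted p of 0.209 and an exact permutation p of 0.0286, which is the smallest that 4 against 4 tumours allow.

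Junb, a JUN protein that is weaker as an activator, had 168, 157, 206 and 327 in shMdk anti-PD1 tumours, against 125, 121, 96.7 and 53.6 in shMdk IgG2a tumours. With the control hairpin it had 176, 129, 105 and 116 under anti-PD1, against 66.4, 57.5, 130.3 and 123 under IgG2a. Again the shMdk groups did not overlap and the shCtrl groups did. Its log2 fold change was 1.12 ± 0.32 in shMdk tumours (limma adjusted p = 0.210, exact permutation p = 0.0286) and 0.54 ± 0.32 in shCtrl tumours (limma adjusted p = 0.798). The 2 lowest counts of shCtrl IgG2a and the lowest of shMdk IgG2a came from libraries with a positive GC slope. Among the libraries without one, the log2 fold change was 0.83 in shMdk tumours (3 against 2) and 0.03 in shCtrl tumours (4 against 2).

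Fos had 64.1, 53.9, 36.4 and 340.3 in shMdk anti-PD1 tumours, against 21.1, 50.02, 29.4 and 47.3 in shMdk IgG2a tumours. In shCtrl tumours it had 41.4, 156, 36.3 and 54.8 with anti-PD1, against 81.0, 30.9, 64.7 and 65.5 with IgG2a. One tumour in each anti-PD1 group, shMdk tumour 4 and shCtrl tumour 2, lay far above the rest, and each pair of groups overlapped. The log2 fold change of anti-PD1 over IgG2a in shMdk tumours was 1.196 ± 0.58 (limma adjusted p = 0.406), and 0.51 ± 0.47 without shMdk anti-PD1 tumour 4 (limma adjusted p = 0.768). Fosb, a relative of Fos that is nearly silent in resting tissue, followed the same tumours at a lower depth. It had 1.94, 3.92, 0 and 245 in shMdk anti-PD1 tumours, against 5.56, 6.37, 1.90 and 2.10 in shMdk IgG2a tumours. With the control hairpin, counts were 9.20, 45.04, 1.86 and 1.80 under anti-PD1, against 15.8, 2.13, 7.61 and 7.38 under IgG2a. The 245 stood for 289 reads. Without that tumour the fold change of anti-PD1 in shMdk tumours turned round, to a log2 of -0.91 ± 0.90 (limma adjusted p = 0.793), against 0.76 ± 1.27 with it (limma adjusted p = 0.799), so its direction rested on 1 tumour.

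Of the zinc finger genes, Egr1 had a higher mean log2 value with anti-PD1 in both lines and Klf4 in shMdk than in shCtrl tumours under anti-PD1, but neither passed the limma test. Egr1 had 58.3, 40.1, 27.1 and 163 in shMdk anti-PD1 tumours, against 33.4, 18.2, 20.9 and 35.7 in shMdk IgG2a tumours. In shCtrl tumours it had 34.0, 57.0, 74.4 and 71.9 with anti-PD1, against 37.1, 11.7, 15.2 and 27.7 with IgG2a. Only 1 of the 4 shCtrl anti-PD1 tumours lay inside the range of the shCtrl IgG2a tumours. Its log2 fold change was 1.10 ± 0.48 in shMdk tumours (limma adjusted p = 0.366, exact permutation p = 0.114), or 0.60 without tumour 4 (limma adjusted p = 0.703), and 1.41 ± 0.48 in shCtrl tumours (limma adjusted p = 0.798, exact permutation p = 0.0571). Egr1 was the member with the largest fold change in shCtrl tumours, and its value there was 1.42 among libraries without a positive GC slope.

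Klf4 had 108, 60.7, 35.6 and 149 in shMdk anti-PD1 tumours, against 50.1, 19.1, 18.01 and 45.2 in shMdk IgG2a tumours. In shCtrl tumours it had 9.20, 58.5, 11.2 and 22.5 with anti-PD1, against 79.9, 27.7, 16.2 and 29.5 with IgG2a. Of the shCtrl anti-PD1 tumours, tumour 2 was high and the other 3 lay below each shMdk anti-PD1 tumour. Under anti-PD1 the log2 fold change of shMdk over shCtrl was 1.93 ± 0.59 (limma adjusted p = 0.0658, exact permutation p = 0.0571), and it was 1.62 without shMdk anti-PD1 tumour 4 (limma adjusted p = 0.190) and 2.45 without shCtrl anti-PD1 tumour 2 (limma adjusted p = 0.0165). Leaving out single tumours gave 1.60 to 2.45, with 3 of 16 passing, where leaving out an IgG2a tumour changed only the shared spread. Klf6, a broadly expressed relative, had 855, 929, 727 and 1458 in shMdk anti-PD1 tumours, against 595, 725, 720.5 and 903 in shMdk IgG2a tumours. With the control hairpin, counts were 689, 1153, 562 and 718 under anti-PD1, against 1007, 619, 750.4 and 792 under IgG2a. Each pair of groups overlapped, and the largest of its 4 fold changes between groups was 0.40 ± 0.23 on the log2 scale.

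Of the feedback genes, Zfp36 and Dusp1 differed between antibodies in shMdk tumours without overlap. Zfp36 had 54.4, 47.0, 55.9 and 77.9 in shMdk anti-PD1 tumours, against 26.7, 22.7, 16.1 and 23.1 in shMdk IgG2a tumours. In shCtrl tumours it had 17.5, 45.04, 22.3 and 20.7 with anti-PD1, against 27.0, 19.2, 30.4 and 26.8 with IgG2a. The 4 shMdk anti-PD1 tumours lay above the other 12, the nearest being shCtrl anti-PD1 tumour 2 at 45.04. Relative to genes of like level, Zfp36 varied least of the members within groups. Its SD of 0.38 on the log2 scale was larger than that of 17.2% of 499 genes of like level, whereas Fosb (SD 2.07) stood at 99.8%, Fos at 94.99%, Klf4 at 94.4% and Jun at 90.2%.

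Dusp1 had 388, 341, 303 and 477 in shMdk anti-PD1 tumours, against 178, 217, 224 and 69.4 in shMdk IgG2a tumours. In shCtrl tumours it had 324, 191, 219 and 191 with anti-PD1, against 85.5, 129, 195 and 231 with IgG2a. The shMdk groups did not overlap, and the shCtrl groups did. Its log2 fold change of anti-PD1 over IgG2a was 1.24 ± 0.35 in shMdk tumours (limma adjusted p = 0.203, exact permutation p = 0.0286) and 0.59 ± 0.35 in shCtrl tumours (limma adjusted p = 0.798). The counts of 69.4, 85.5 and 129 came from libraries with a positive GC slope, as did 224 and 388. Among libraries without one the log2 fold changes were 0.89 in shMdk and 0.09 in shCtrl tumours. The part of the GC slope in these values was not tested.

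Ier2 had 61.2, 94.0, 107 and 118 in shMdk anti-PD1 tumours, against 61.2, 78.2, 68.3 and 58.9 in shMdk IgG2a tumours. With the control hairpin, counts were 106, 58.5, 141 and 109.6 under anti-PD1, against 64.2, 65.0, 112 and 114 under IgG2a. It was the 1 member that was not highest in shMdk anti-PD1 tumour 4, and its groups overlapped throughout. Its log2 fold changes ran from -0.36 to 0.47.

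Taken over the 10 genes, anti-PD1 against IgG2a in shMdk tumours gave no call. By limma, 0 of 10 members had an adjusted p under 0.05, where 0.0341% of all genes did. The count was 0 by edgeR and 3 by DESeq2, which called Jun (adjusted p = 0.0361), Junb (adjusted p = 0.0456) and Zfp36 (adjusted p = 0.00256). Over all genes, DESeq2 called 248 here, where limma called 5 and edgeR 8. At an unadjusted p under 0.05, limma gave 6 of 10, against 12.4% of all genes. The 4 genes whose groups did not overlap, Zfp36, Dusp1, Junb and Jun, compare with 4.42% of all genes that were higher without overlap. Zfp36 had the largest log2 fold change, 1.36 ± 0.30 (limma adjusted p = 0.112, exact permutation p = 0.0286). The median over the members was 1.11, against 0.03 over all genes, and 10 of 10 were above 0, against 53.2% of all genes. Without shMdk anti-PD1 tumour 4, the median was 0.68 and 9 of 10 were above 0. Zfp36 was then at 1.22, Dusp1 at 1.12, Klf4 at 1.02, Junb at 0.89, Jun at 0.75, Egr1 at 0.60, Fos at 0.51, Ier2 at 0.36, Klf6 at 0.19 and Fosb at -0.91.

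In shCtrl tumours, anti-PD1 gave 0 of 10 calls by limma, by edgeR and by DESeq2, where limma called 0% of all genes. Egr1 was the 1 member with an unadjusted p under 0.05, against 3.79% of all genes. Apart from Egr1, Junb and Dusp1, given above, Ier2 was at 0.21, Jun at 0.16, Fos at 0.07, Fosb at -0.00, Zfp36 and Klf6 at -0.05 each and Klf4 at -0.70. The median log2 fold change was 0.11, against 0.01 over all genes, and 6 of 10 members were above 0, against 51.3% of all genes. The difference between the lines was tested directly, as the anti-PD1 effect in shMdk minus that in shCtrl tumours. It gave 0 of 10 calls by limma, by edgeR and by DESeq2, with 0% of all genes called by limma and each member's adjusted p at 0.9998. At an unadjusted p under 0.05 there were 2 members, against 3.45% of all genes: Zfp36, with a difference of 1.41 ± 0.42 on the log2 scale, and Klf4, with 2.04 ± 0.84. Fos was at 1.13, Jun at 0.86, Fosb at 0.76, Dusp1 at 0.65, Junb at 0.58, Klf6 at 0.45, Ier2 at 0.26 and Egr1 at -0.30. The anti-PD1 effects were therefore not shown to differ between the lines.

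**Figure D2:**
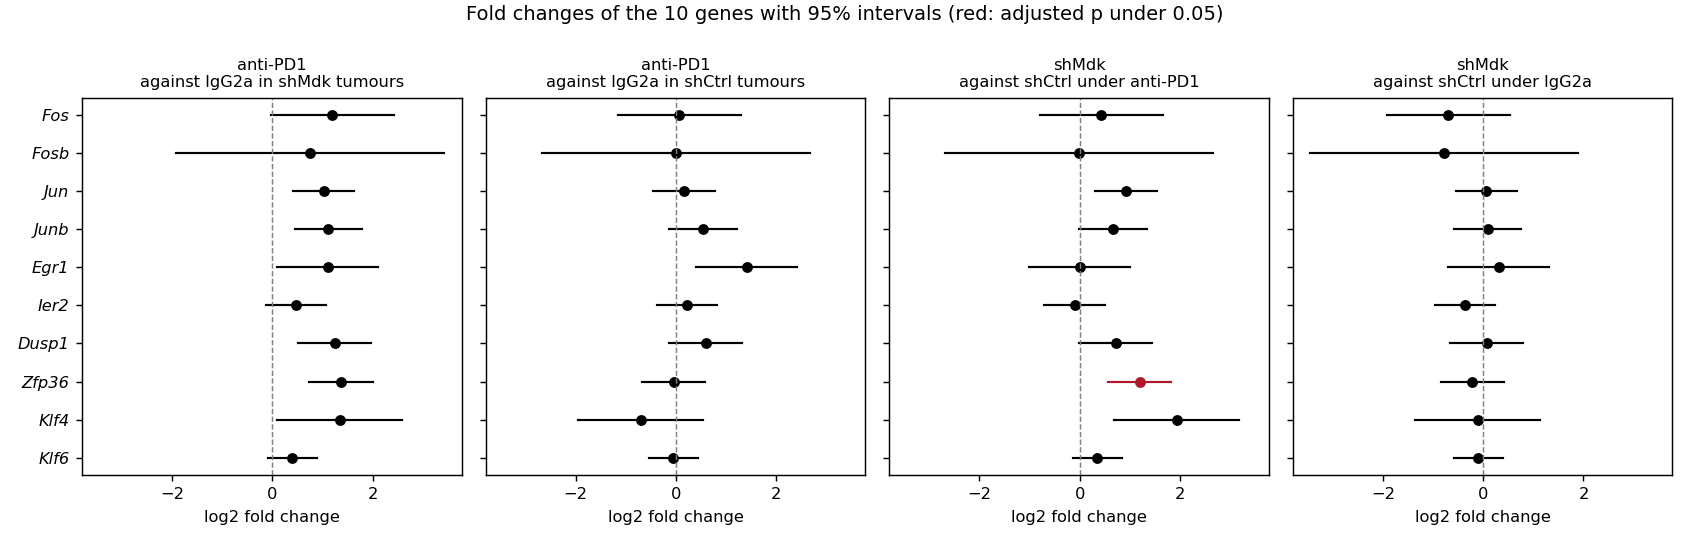
Log2 fold change of each gene with its 95% interval from the limma fit (x axis) in 4 comparisons; red marks an adjusted p under 0.05. In shMdk tumours the 10 points for anti-PD1 against IgG2a lie above 0, and the one red point is Zfp36 in shMdk against shCtrl under anti-PD1, at 1.199.

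Between hairpins, under anti-PD1, Zfp36 was higher in shMdk than in shCtrl tumours, with a log2 fold change of 1.199 ± 0.30 (limma adjusted p = 0.0230, exact permutation p = 0.0286). It was the 1 member higher without overlap, where 8.23% of all genes were. It was also 1 of 10 members called, where 4.93% of all genes were called higher and 5.93% in either direction, and 1 of 10 is near that share. At an unadjusted p under 0.05 there were 3 members, against 17.8% of all genes. The call was lost without any 1 of 5 anti-PD1 tumours, among them shMdk anti-PD1 tumour 4 (1.06, limma adjusted p = 0.0804), and was kept in 20 of 27 other settings. Among these, the settings without an IgG2a tumour left the fold change at 1.199 and changed only the shared spread. Klf4 (above) and Jun, at 0.93 ± 0.29 (limma adjusted p = 0.0736, exact permutation p = 0.0571), did not pass by limma and did by DESeq2 (adjusted p = 0.0309 for Klf4 and 0.0245 for Jun). Over all genes, DESeq2 called 1310 in this comparison, where limma called 870. Dusp1 was at 0.72 ± 0.35, Junb at 0.67 ± 0.32, Fos at 0.43 ± 0.58 and Klf6 at 0.35 ± 0.23. Egr1 was at 0.00 ± 0.48, with a 95% interval from -1.001 to 1.01. Fosb was at -0.02 ± 1.27 and Ier2 at -0.10 ± 0.28, the 2 members below 0. The median was 0.55, against -0.02 over all genes. Without shMdk anti-PD1 tumour 4 the median was 0.30 and 6 of 10 were above 0, with Fos at -0.25, Egr1 at -0.50, Fosb at -1.68 and Ier2 at -0.22.

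Under IgG2a, shMdk against shCtrl gave 0 of 10 calls by limma, by edgeR and by DESeq2, where limma called 1.74% of all genes, and 0 of 10 at an unadjusted p under 0.05, against 9.69% of all genes. The median log2 fold change was -0.10. Egr1 was at 0.31, Junb at 0.09, Dusp1 at 0.07, Jun at 0.06, Klf6 at -0.10, Klf4 at -0.11, Zfp36 at -0.22, Ier2 at -0.36, Fos at -0.70 and Fosb at -0.78. Averaged over both antibodies, shMdk against shCtrl gave 0 of 10 calls by limma, by edgeR and by DESeq2, against 8.40% of all genes by limma, with Jun (0.50 ± 0.21), Zfp36 (0.49 ± 0.21) and Klf4 (0.91 ± 0.42) at an unadjusted p under 0.05, against 21.0% of all genes. Averaged over both hairpins, anti-PD1 against IgG2a gave 0 of 10 calls by limma and by edgeR, against 0.0477% of all genes by limma, with 5 of 10 at an unadjusted p under 0.05, against 16.8% of all genes, and 3 by DESeq2 (Egr1 with an adjusted p of 0.0190, Dusp1 with 0.0444 and Junb with 0.0483). Over all genes, DESeq2 called 218 in that average, where limma called 7. For shMdk over shCtrl the other averaged log2 fold changes were 0.39 for Dusp1, 0.38 for Junb, 0.16 for Egr1, 0.12 for Klf6, -0.13 for Fos, -0.23 for Ier2 and -0.40 for Fosb. For anti-PD1 over IgG2a they were 1.26 for Egr1, 0.92 for Dusp1, 0.83 for Junb, 0.66 for Zfp36, 0.63 for Fos, 0.59 for Jun, 0.38 for Fosb, 0.34 for Ier2, 0.32 for Klf4 and 0.17 for Klf6. These averages share tumours with the comparisons above.

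Cell type markers moved between the same groups. Of 10 macrophage and monocyte markers, 9 were called higher in shMdk than in shCtrl tumours under anti-PD1, with summed counts of 2828 to 6591 in shMdk anti-PD1 tumours, against 375 to 1414 in shCtrl anti-PD1 tumours. Their sum in shMdk IgG2a tumours was 1347 to 3683, against 388 to 919.7 in shCtrl IgG2a tumours. Under anti-PD1, calls of higher level in shMdk tumours were also made for 4 of 6 detected T and NK cell markers, 3 of 7 fibroblast and pericyte markers, 3 of 7 endothelial markers and 1 of 5 neutrophil markers, and for 0 of 8 melanocyte markers. Of those markers that define the T cell lineage, Cd3e was at 0 in 5 of 16 tumours and Cd8a in 3. With anti-PD1 against IgG2a in shMdk tumours, 0 markers of these lists were called, and the median log2 fold change was 1.08 for macrophage markers (10 of 10 above 0), 1.33 for fibroblast markers (7 of 7), 0.93 for T and NK cell markers (6 of 6), 2.36 for neutrophil markers (5 of 5) and 0.70 for endothelial markers (5 of 7), beside 1.11 for the members. In shMdk anti-PD1 tumour 4, where the members peaked, the fibroblast sum of 6922 was the second highest of the 16 tumours, against at most 2925 outside its group, and the macrophage sum was 3343. The macrophage and the endothelial sums each had rank 4 of the 16 tumours. Markers highest there of the 16 tumours were few. They were 1 of 7 fibroblast and pericyte markers (Pdgfrb, 126), 1 of 7 endothelial markers (Emcn, 172) and 1 of 10 macrophage and monocyte markers (Cd14, 33.0). The part of these cells in the members' values was not tested.

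Within groups, by Pearson r, Fos, Fosb, Jun and Klf6 varied together across tumours, as did Junb with Dusp1 and Egr1 with Klf4, once group means were removed. Of the 45 pairs, 8 passed over 16 tumours at an adjusted p under 0.05 in a permutation test within groups, and 33 were above 0. The highest were Fos with Klf6 (Pearson r = 0.93, permutation adjusted p = 0.00157; Spearman rho = 0.92, permutation adjusted p = 0.00292) and Jun with Klf6 (r = 0.92, permutation adjusted p = 0.00157; rho = 0.90, permutation adjusted p = 0.00292). Fos with Jun (r = 0.89), Fos with Fosb (r = 0.88), Fosb with Klf6 (r = 0.80) and Fosb with Jun (r = 0.78) followed, along with Junb with Dusp1 (r = 0.81) and Egr1 with Klf4 (r = 0.69). Ier2 and Klf4 had the lowest value, r = -0.63 (permutation adjusted p = 0.0867). Zfp36 and Ier2 were in 0 passing pairs. By rank, 3 pairs passed, namely Fos with Klf6, Jun with Klf6 and Fos with Jun (Spearman permutation adjusted p = 0.0211). The pairs with Fosb did not pass by rank. Nor did Junb with Dusp1 (Spearman permutation adjusted p = 0.0652) or Egr1 with Klf4 (Spearman permutation adjusted p = 0.0676).

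These relations rested partly on few tumours. Without the 2 tumours farthest from the median of the first gene of a pair, 1 pair passed, Jun with Klf6 (r = 0.91, permutation adjusted p = 0.0243). Fos with Klf6 was then at r = 0.84 (permutation adjusted p = 0.0652), Fos with Jun at 0.76 and Fos with Fosb at 0.46, while Junb with Dusp1 was at 0.70. Without shMdk anti-PD1 tumour 4, 3 pairs passed: Fos with Klf6 (r = 0.92), Jun with Klf6 (r = 0.89) and, negatively, Ier2 with Klf4 (r = -0.80, permutation adjusted p = 0.0364). Without that tumour and shCtrl anti-PD1 tumour 2, 0 pairs passed, and Fos with Klf6 was at 0.84, Jun with Klf6 at 0.83 and Junb with Dusp1 at 0.83. Among the 11 libraries without a positive GC slope, 0 pairs passed. The 3′ ends of Junb and Ier2 were the most GC-rich of the members (53.6% and 55.2%), and that of Dusp1 was at 38.2%. In shCtrl anti-PD1 tumour 2, the library with the most Gm42418 and haemoglobin reads, 6 of 10 members were at their group's highest. In that tumour 2 members, Ier2 and Dusp1, were at the lowest.

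**Figure D3:**
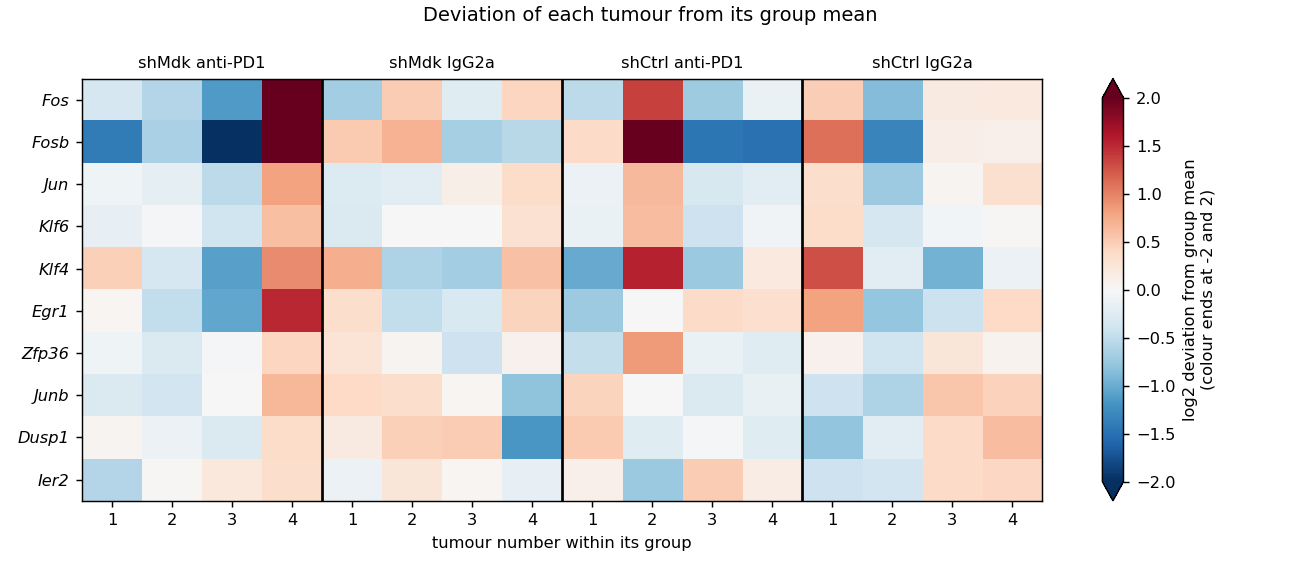
Deviation of each tumour (columns, in 4 groups of 4) from its group mean on the log2(normalised count + 1) scale for each gene (rows); red is above and blue below the mean, with colours ending at -2 and 2. The columns of shMdk anti-PD1 tumour 4 and shCtrl anti-PD1 tumour 2 are red from Fos to Klf4, and the bottom 3 rows, Junb, Dusp1 and Ier2, change colour at other tumours than the top rows do.

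**Figure D4:**
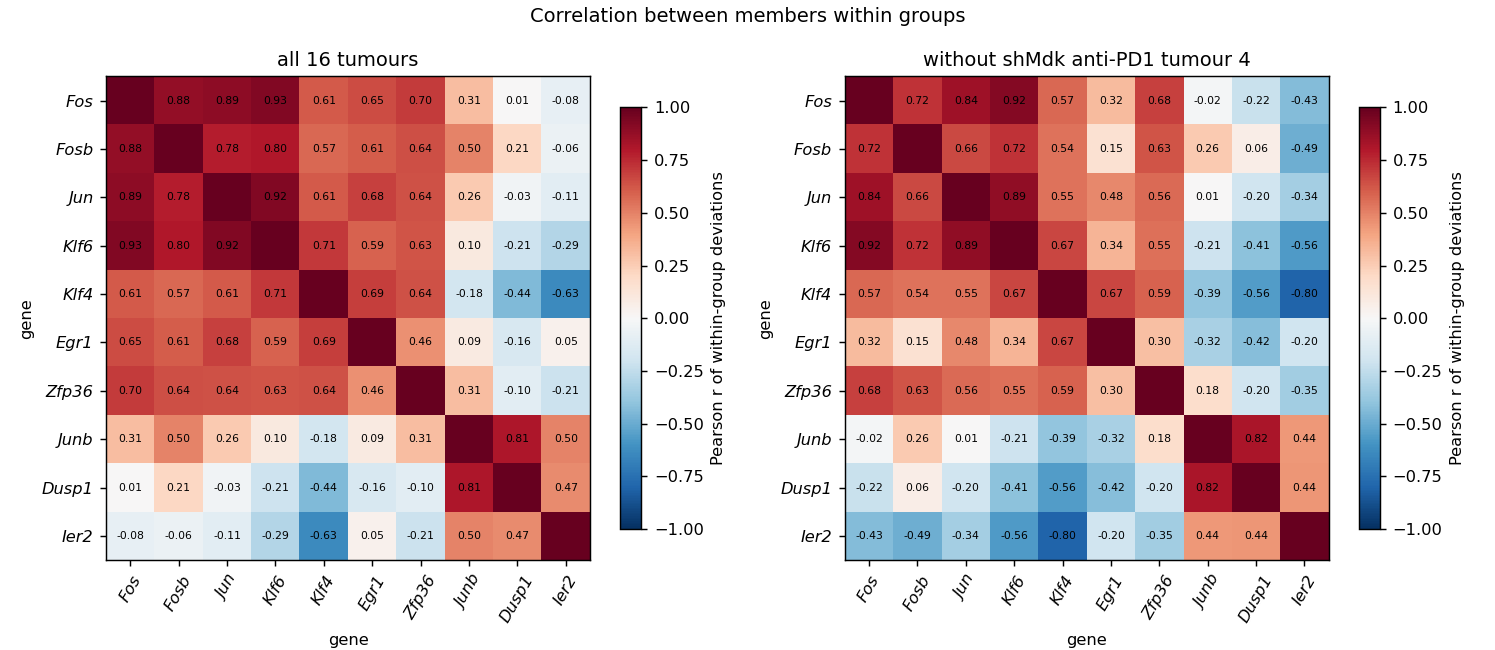
Pearson r of within-group deviations between each pair of the 10 genes, over the 16 tumours (left) and without shMdk anti-PD1 tumour 4 (right); colour runs from -1 to 1. The block from Fos to Zfp36 is positive in both panels, and Ier2 with Klf4 is the lowest cell in both, at -0.63 and -0.80.

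The genes that varied most like the members within groups included other stimulus-induced genes. Over 10713 genes, those with the highest r to the mean of the members' standardised deviations were Atf3 (r = 0.90), a stress-induced AP-1 partner, Rhob (0.85), an immediate early small GTPase, Ppp4c (0.85), Gzf1 (0.83), Flt1 (0.83), a VEGF receptor of endothelium, and Bhlhe40 (0.82), a stress- and hypoxia-responsive repressor. Next in rank were Alkbh1 (0.81), Haus2 and Ctgf (0.80 each) and Isg20 (0.79), followed by Bmt2, Slc2a1, Ugdh, Parp16 and Arhgef40. These values describe 16 tumours and carry no test. Atf3 had 264 in shMdk anti-PD1 tumour 4, against at most 115 elsewhere, and Ctgf, a YAP and TGF-beta target, had 231, against at most 61.8. Without that tumour, 4 of the 15 stayed among the 15 most alike: Atf3 (r = 0.88), Bhlhe40 (0.85), Ugdh (0.81) and Flt1 (0.80).

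Among other immediate early genes, several passed the limma test in shMdk against shCtrl tumours under anti-PD1, where 4 of 27 tested were higher and 1 was lower, and 4.93% of all genes were called higher and 0.995% lower. Ier5, a relative of Ier2, had 352, 245, 198 and 221 in shMdk anti-PD1 tumours, against 79.1, 66.1, 72.5 and 74.6 in shCtrl anti-PD1 tumours (log2 fold change 1.75 ± 0.23, limma adjusted p = 4.50e-04). Klf2, a shear- and quiescence-associated relative of Klf4 and Klf6, had 205, 123, 104 and 318, against 25.7, 57.0, 39.0 and 37.7 in shCtrl anti-PD1 tumours (2.12 ± 0.33, limma adjusted p = 0.00129). Neither pair of groups overlapped. Mcl1, an anti-apoptotic BCL2 relative, was at 0.54 ± 0.10 (limma adjusted p = 0.00425) and Egr2 at 2.55 ± 0.64 (limma adjusted p = 0.0246), while Myc fell by 1.54 on the log2 scale (limma adjusted p = 0.0323). Ier5, Klf2 and Mcl1 passed in 27 of 27 other settings, Egr2 in 18 of 26 and Myc in 19 of 27. The list median was 0.57, against -0.02 over all genes. With anti-PD1 against IgG2a in shMdk tumours, 0 of the 27 passed, the median was 0.65 and 23 of 27 were above 0. In shCtrl tumours the median was 0.10, with 0 of 27 passing. For shMdk against shCtrl under IgG2a, 0 of the 27 passed. Ier5 still separated those groups, at 117 to 223 against 62.8 to 110, as did Mcl1, at 1218 to 1439 against 1054 to 1190. Averaged over both antibodies, 4 of the 27 were called higher in shMdk tumours and 1 lower, with Ier5 at 1.33 (limma adjusted p = 5.33e-05). The lower gene was Myc, at -1.42 (limma adjusted p = 0.00382).

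Of 12 other AP-1 and related leucine zipper genes, 2 were higher in shMdk than in shCtrl tumours under anti-PD1 and 0 lower. Batf3, a factor that dendritic cells need, was at 1.89 ± 0.38 (limma adjusted p = 0.00566) and Batf2 at 1.52 ± 0.41 (limma adjusted p = 0.0359), and both are known from immune cells. Batf2 was also higher under IgG2a (1.80 ± 0.41, limma adjusted p = 0.0303). Of 16 further phosphatase and ERK feedback genes, 0 were higher and 1 lower, Spry2, which fell by 0.64 (limma adjusted p = 0.0402). Spry2 passed in 17 of 27 other settings, and the count was 0 without shMdk anti-PD1 tumour 2 or 3, without any 1 of the 4 shCtrl anti-PD1 tumours and without shCtrl IgG2a tumour 3. Of 18 upstream MAP kinase, SRF and CREB genes, 0 passed, the list median was 0.08, and the largest changes were in Elk1, an SRF partner (0.44), and Mapk3, which encodes ERK1 (0.35). Of 11 genes of the ZFP36 family and its short-lived targets, 3 were higher and 0 lower. Nfkbia, an NF-kappa B inhibitor, was at 0.93 ± 0.16 (limma adjusted p = 0.00249), Ccl3, a macrophage chemokine, at 2.07 ± 0.52 (limma adjusted p = 0.0250) and Il1b at 2.33 ± 0.65 (limma adjusted p = 0.0403). The list median was 1.07. Averaged over both antibodies, 3 of the 12 AP-1 genes were higher in shMdk tumours, where 8.40% of all genes were called either way. Atf3 (1.06 ± 0.25, limma adjusted p = 0.0121) joined Batf2 and Batf3. In that contrast 3 of the 16 ERK feedback genes were lower. They were Spry2 (-0.65, limma adjusted p = 0.00260), Spred2 (-0.94, limma adjusted p = 0.00746) and Phlda1 (-0.35, limma adjusted p = 0.0306). Phlda1 passed in 17 of 26 other settings. The ZFP36 list gave 4 of 11 higher.

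Heat shock genes, which tissue stress also raises, gave 1 of 13 higher and 0 lower in shMdk against shCtrl tumours under anti-PD1. Of all genes, 4.93% were called higher there, and 1 of 13 is near that share. Hspa1a was at 2.31 ± 0.49 (limma adjusted p = 0.00825), and the list median was -0.20, while its mean was 0.12. The highest Hspa1a count of the 16 tumours was 77.0, in shMdk anti-PD1 tumour 4. Without that tumour Hspa1a was at 2.04 (limma adjusted p = 0.0337). In anti-PD1 against IgG2a, within either line, 0 genes of these 6 lists passed by limma. The largest in shMdk tumours among heat shock genes was Hspa1b (1.70 ± 0.52, limma adjusted p = 0.236). Leaving out single tumours moved the counts of genes called higher under anti-PD1 between 3 and 6 for other immediate early genes and between 1 and 3 for both the AP-1 list and the ZFP36 list. Counts called lower lay between 0 and 1 for other immediate early genes and for the ERK feedback list. Macrophage, T cell and stromal markers were higher in the same tumours, as given above.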

How the data were processed

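RNA of 16 tumours was sequenced from the 3′ end with a stranded poly(A)-primed kit, per the labels' protocols. The submitters' processing notes name TopHat2 2.0.10 and Bowtie 1.0.0 beside HTSeq and DESeq2, along with FastQC 0.11.0 and SAMtools 0.1.19, and the build GRCm38 (mm10). The annotation release is not given in the sources used here. The deposited signal is a normalised read count that the authors scaled by DESeq2's size factor of each library, per the submitters' processing notes. Dividing by what 1 read is worth in a library gave whole numbers for 100% of the values (tolerance 0.001), so read counts could be recovered; on these, edgeR called 866 genes and DESeq2 1310 for shMdk against shCtrl under anti-PD1. Reads from the 3′ end are not scaled by gene length, and low counts such as those of Fosb carry much counting error. 

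Tumours were grouped by the hairpin and antibody in the labels, and tumour numbers follow accession order. The labels describe separate tumours, so p-values measure the spread between these tumours. limma 3.58.1 in R 4.3.3 was fitted to log2(normalised count + 1) for 14672 genes with a mean of at least 5, with 4 group means, a variance trend and 12 residual degrees of freedom. Fold changes on this scale understate the change of low genes. Benjamini-Hochberg adjustment ran over all genes within a comparison, with a threshold of 0.05. Single genes were also compared by two-sided exact permutation over tumours, unadjusted over genes. Correlations used deviations from group means, with 100000 two-sided permutations within groups and adjustment over the 45 pairs. Alternatives were edgeR 4.0.16 (quasi-likelihood) and DESeq2 1.42.0 on recovered reads, TMM scaling, pseudocounts of 0.5 and 5, no filter or a mean of at least 20, no variance trend, the compared groups alone, and leaving out each tumour. A left-out tumour from a group not compared changes only the shared estimate of spread, not the fold change. Leaving out the 2 libraries high in Gm42418 or the 5 with a positive GC slope was chosen after seeing the data. So was leaving out shMdk anti-PD1 tumour 4 and shCtrl anti-PD1 tumour 2 together. The fit was tested on simulated data.

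The rule for names took all 10 members in each comparison, up to 4 passing genes per list by smallest adjusted p and the 15 genes most alike as well as, in a list with no passing gene, the 2 with the largest change, which the text gives for few lists. Myc, the only one of its list that was lower, was chosen after its values were seen. The members and lists were chosen with earlier results of these data known. 3′ untranslated regions came from GENCODE M21 and promoters from RefSeq.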

Additional observations from a re-analysis of the deposited data

Results flagged for a closer look

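In each set of 4 tumours (10 genes in 4 groups, 40 sets), the gap between the highest or lowest count and its nearest neighbour was set against the whole range. On normalised counts, 4 of the 40 sets held a tumour that stood apart by Dixon's 95% critical value, where chance gives about 2. In shMdk anti-PD1 tumours these were Fos at 340.3 and Fosb at 245 in tumour 4, with gaps of 0.909 and 0.984 of the range. In shCtrl anti-PD1 tumours they were Fos at 156 and Jun at 549 in tumour 2, with gaps of 0.845 and 0.841 of the range. On the log2(normalised count + 1) scale of the tests, 0 of the 40 sets held such a tumour.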

How the results depend on the processing

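Of 1853 values of single members under other settings, 1828 stayed on their side of the threshold, 7 no longer passed and 18 newly passed. In 0 did the sign change where either fit passed. Values that passed in neither fit were counted as staying even where their sign changed. For Fosb in shMdk against shCtrl tumours under anti-PD1, the sign changed in 9 of 26 settings. The number of members called for anti-PD1 against IgG2a in shMdk tumours was 0 by limma, 3 by DESeq2 and 0 to 1 when single tumours were left out (Zfp36 without shCtrl anti-PD1 tumour 2, adjusted p = 0.0372). For shMdk against shCtrl under anti-PD1 it was 1 by limma, 3 by DESeq2, 0 with only the groups compared (Zfp36 adjusted p = 0.0546), 3 without the 2 libraries high in Gm42418, 0 without the 5 with a positive GC slope (Zfp36 at 1.23, adjusted p = 0.0602) and 0 to 3 when single tumours were left out. Zfp36 lost its call without shMdk anti-PD1 tumour 1 (adjusted p = 0.0593) or 4 (0.0804), or without shCtrl anti-PD1 tumour 1 (0.0797), 3 (0.0596) or 4 (0.0738). Jun and Klf4 were added without shMdk anti-PD1 tumour 3 or shCtrl anti-PD1 tumour 2, Klf4 without shCtrl IgG2a tumour 1 and Jun without shCtrl IgG2a tumour 2. For anti-PD1 averaged over hairpins it was 0 by limma and 3 by DESeq2. For shMdk against shCtrl averaged over antibodies it was 0 to 1 (Zfp36 without shCtrl anti-PD1 tumour 2, adjusted p = 0.0361). The correlated pairs numbered 8, and 1 without the 2 farthest tumours. They numbered 0 without the 5 libraries with a positive GC slope, and 0 without shMdk anti-PD1 tumour 4 and shCtrl anti-PD1 tumour 2. When single tumours were left out they numbered 2 to 15 (15 without shMdk IgG2a tumour 1, 2 without shCtrl IgG2a tumour 2). The causes were not tested.

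Over all genes, DESeq2 called 248 for anti-PD1 in shMdk tumours, where limma called 5 and edgeR 8, and 218 for anti-PD1 averaged over hairpins, where limma called 7 and edgeR 11. For shMdk against shCtrl the counts by limma, edgeR and DESeq2 were 870, 866 and 1310 under anti-PD1 and 255, 251 and 449 under IgG2a. Fosb rested on as few as 0 reads in a tumour, which limits its fold changes. No paired analysis was possible because the labels give no replicate numbers, and those used here follow accession order.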

Other observations

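Of 11 listed genes of the ZFP36 family and its targets, 3 passed in shMdk against shCtrl tumours under anti-PD1 by limma, and 1 to 3 when single tumours were left out. The counts of Il1b and Ccl3, cytokine transcripts that tristetraprolin is known to destabilise, are given here after their values were seen. Macrophage markers were higher in the same tumours (9 of 10 called), and their part was not tested. Il1b had 133, 19.6, 45.8 and 34.7 in shMdk anti-PD1 tumours, against 3.68, 12.01, 12.1 and 8.09 in shCtrl anti-PD1 tumours. Ccl3 had 96.2, 55.8, 78.0 and 44.9 in shMdk anti-PD1 tumours, against 15.6, 9.01, 13.9 and 25.2 in shCtrl anti-PD1 tumours. Both genes separated the groups without overlap. Il1b did not pass without any of several single tumours and passed in 17 of 27 other settings, and Ccl3 passed in 20 of 27. In shMdk anti-PD1 tumour 4, where Zfp36 was highest at 77.9, Ccl3 was the lowest of its group. Il1b went otherwise, being lowest in tumour 2 of that group (19.6), where Zfp36 was lowest too (47.0). An effect of Zfp36 on either gene was not tested. Myc had 19.4, 16.6, 27.1 and 40.6 in shMdk anti-PD1 tumours, against 101, 75.1, 65.1 and 58.4 in shCtrl anti-PD1 tumours, a fall in an immediate early gene beside rises in Ier5 and Klf2. The lower level was not particular to anti-PD1. Under IgG2a, Myc averaged 27.1 in shMdk and 74.8 in shCtrl tumours (log2 fold change -1.31, limma adjusted p = 0.163). Averaged over both antibodies, its log2 fold change was -1.42 (limma adjusted p = 0.00382).

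shMdk anti-PD1 tumour 4, high for 10 of 10 members, also had the lowest Mdk count of the 16 tumours, 96.5. The next lowest was shMdk IgG2a tumour 4 at 120.9, where the members took 0.0203% of reads, against 0.0615% in the first. A relation between Mdk and the members was not tested.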
